A study of Mus musculus with 8 samples.

Results

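HECT ubiquitin ligases are enzymes that take ubiquitin from a ubiquitin-conjugating (E2) enzyme onto a cysteine of their own C-terminal HECT domain and then pass it to a substrate protein. Rnf146, the gene delivered to the prefrontal cortex (PFC) here, encodes a RING-type ubiquitin ligase, which does not carry ubiquitin on a cysteine in this way. The genes described are 10 HECT ligase genes, *Ube3a*, *Ube3b*, *Ube3c*, *Hecw1*, *Hecw2*, *Nedd4*, *Nedd4l*, *Itch*, *Huwe1* and *Herc2*, chosen by gene symbol, and all 10 had values among the 15039 genes of the RNA sequencing table. Several of them are known from the brain: loss of the maternal *UBE3A* copy in neurons causes Angelman syndrome, Nedd4-type ligases ubiquitinate membrane proteins such as AMPA receptor subunits, and human variants in *HUWE1*, *HERC2* and *HECW2* occur in neurodevelopmental disorders.

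The 8 libraries came from dissected PFC of wild-type male C57BL/6NCrljOri mice, injected on both sides at 6 weeks of age and sampled 4 weeks later. In the Rnf146 group (4 libraries) the injected AAV2/1 expressed mouse *Rnf146* together with eGFP, and in the eGFP group (4 libraries) it expressed eGFP alone, so that the controls shared the surgery, the virus and eGFP. The human synapsin promoter of both vectors directs their expression to neurons, while the RNA was that of the whole dissected tissue. In such bulk RNA, fewer cells of a type and less RNA per cell cannot be told apart.

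Values are on a log2 scale and had been centred by the authors within each pair of libraries that share a replicate number, so that the sum of a pair's 2 values did not vary between the 4 pairs. Each gene therefore held 4 pair differences (Rnf146 minus eGFP), and the 2 groups of a gene failed to overlap exactly when its 4 differences had the same sign. *Rnf146* itself had a mean difference of 2.64 ± 0.13 (SD, n = 4 pairs; limma, adjusted p = 3.18e-07), and vector and endogenous transcripts were counted together. With limma and the replicate number as a block, 188 genes (1.25% of those tested) passed an adjusted p of 0.1, the threshold for a call used here, of which 123 (0.818%) were higher and 65 (0.432%) lower in the Rnf146 group. Markers of cortical excitatory neurons were present, but the groups differed in several marker lists. The mean value of 10 cortical excitatory neuron markers lay between 12.19 and 12.35 in the eGFP libraries and between 11.99 and 12.14 in the Rnf146 libraries. That of 8 oligodendrocyte markers differed by -0.15, 0.49, 0.92 and 0.55 in pairs 1 to 4, and pair 1 stood apart in this list. All 5 septal and basal forebrain markers in the table were called higher, and 0 of 9 striatal markers were called. Of these 9, 8 had an unadjusted p under 0.05 (all genes, 12.4%), and the mean of the 9 differed by 1.36 in pair 2 and by -0.12 in pair 1. Of 8 interneuron markers, 3 (*Gad1*, *Gad2* and *Slc32a1*) were called higher and 3 were lower in all 4 pairs. All 7 microglial markers had lower means and 5 were lower in all 4 pairs, with 0 called.

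The catalytic cysteine is what makes the 10 proteins HECT ligases. Its surroundings are shown because ubiquitin is carried there, and because they let the 9 proteins be compared independently of expression. Each line gives 5 codons on either side of the cysteine codon, which is in capitals, 5′ to 3′ on the coding strand. They were read from the GRCm39 genome through the canonical GENCODE vM39 transcripts, and the cysteine is the last Thr-Cys pair, with a hydrophobic residue after it, in the final 90 residues of the protein.
Ube3a: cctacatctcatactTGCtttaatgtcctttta
Ube3b: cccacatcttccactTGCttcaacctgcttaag
Ube3c: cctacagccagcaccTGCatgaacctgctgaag
Hecw1: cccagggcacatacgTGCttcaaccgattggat
Hecw2: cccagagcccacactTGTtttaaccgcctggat
Nedd4: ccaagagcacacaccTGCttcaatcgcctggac
Itch: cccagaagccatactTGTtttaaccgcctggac
Huwe1: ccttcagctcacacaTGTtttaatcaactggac
Herc2: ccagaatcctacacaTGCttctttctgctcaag
All 9 stretches shown lie in coding sequence of exons close to the 3′ end of the gene, where 4 were contained in the last exon and 5 ran across the junction into it. The codon was TGC in 6 genes and TGT in 3. The 11 encoded residues were identical in Hecw1, Hecw2 and Nedd4, although Hecw1 and Hecw2 shared only 25 of the 33 bases. Itch shared 10 of the 11 residues with each of these 3, and Huwe1 shared 9. The Ube3 genes did not form a set of their own by this count. Ube3b shared 9 with Ube3c and 8 each with Ube3a and Herc2, while Ube3a shared 6 with Ube3c and 8 with Itch.

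The stretches of the Ube3 group lie at chr7:58954562-58954594 for *Ube3a* (plus strand, exon 11 of 11), chr5:114557614-114557646 for *Ube3b* (plus strand, exon 28 of 28) and chr5:29879451-29879483 for *Ube3c* (plus strand, exon 23 of 23). Those of the Nedd4-type genes, whose span includes the last intron, lie at chr13:14405318-14408888 for *Hecw1* and chr1:53852465-53866039 for *Hecw2* (both minus strand, exons 28 and 29 of 29), chr9:72653745-72654423 for *Nedd4* (plus strand, exons 28 and 29 of 29) and chr2:155062184-155066302 for *Itch* (plus strand, exons 24 and 25 of 25). The 2 giant ligases have theirs at chrX:150716110-150717292 for *Huwe1* (plus strand, exons 82 and 83 of 83) and chr7:55880644-55880676 for *Herc2* (plus strand, exon 93 of 93).

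None of the 10 HECT ligase genes passed the threshold in limma with the replicate block (0 of 10, against 1.25% of all genes). At an unadjusted p under 0.05 there were 2 of 10, *Hecw2* with a higher and *Ube3b* with a lower value in the Rnf146 group, against 12.4% of all genes. The mean difference was above 0 for 6 genes and below 0 for 4. It was under 0.1 in size for 7 of the 10. Median difference over the 10 genes was 0.03, beside 0.00 over all genes, and the median size of the difference was 0.05 for both. Their spread over the pairs was also that of the table, with a median SD of 0.097 against 0.098. The 95% intervals reached between 0.097 and 0.187 to either side of the mean and included 0 for 8 genes.

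**Figure D1:**
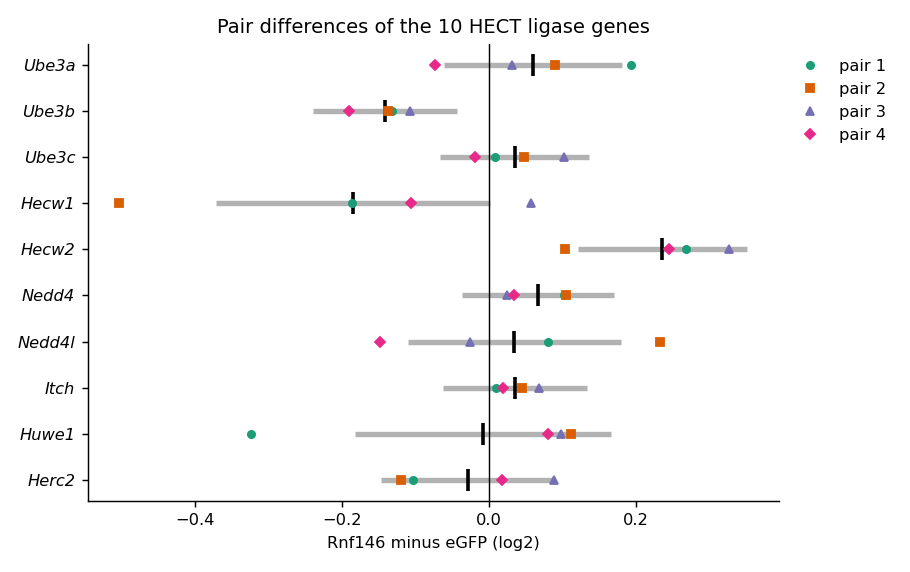
Difference between the Rnf146 and the eGFP library of each pair (log2 scale, horizontal axis) for the 10 HECT ligase genes, with points for the 4 pairs, a black tick for the mean and a grey bar for the 95% interval of limma. Only the intervals of *Hecw2* and *Ube3b* stay clear of 0, and *Huwe1* shows 1 pair far from the other 3.

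Direction was the same in all 4 pairs for 4 of the 10 genes. *Hecw2*, *Nedd4* and *Itch* were higher in the Rnf146 library of all 4 pairs (3 of 10, against 10.4% of all genes), and *Ube3b* was lower in all 4 (1 of 10, against 10.2%). For the remaining 6 genes, *Ube3a*, *Ube3c*, *Hecw1*, *Nedd4l*, *Huwe1* and *Herc2*, the pairs differed in direction and the mean was smaller than the SD of the pairs. Averaged over the 10 genes, the difference was -0.01, 0.00, 0.07 and -0.01 in pairs 1 to 4, with a mean of 0.01 ± 0.04 (SD, n = 4 pairs).

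**Figure D2:**
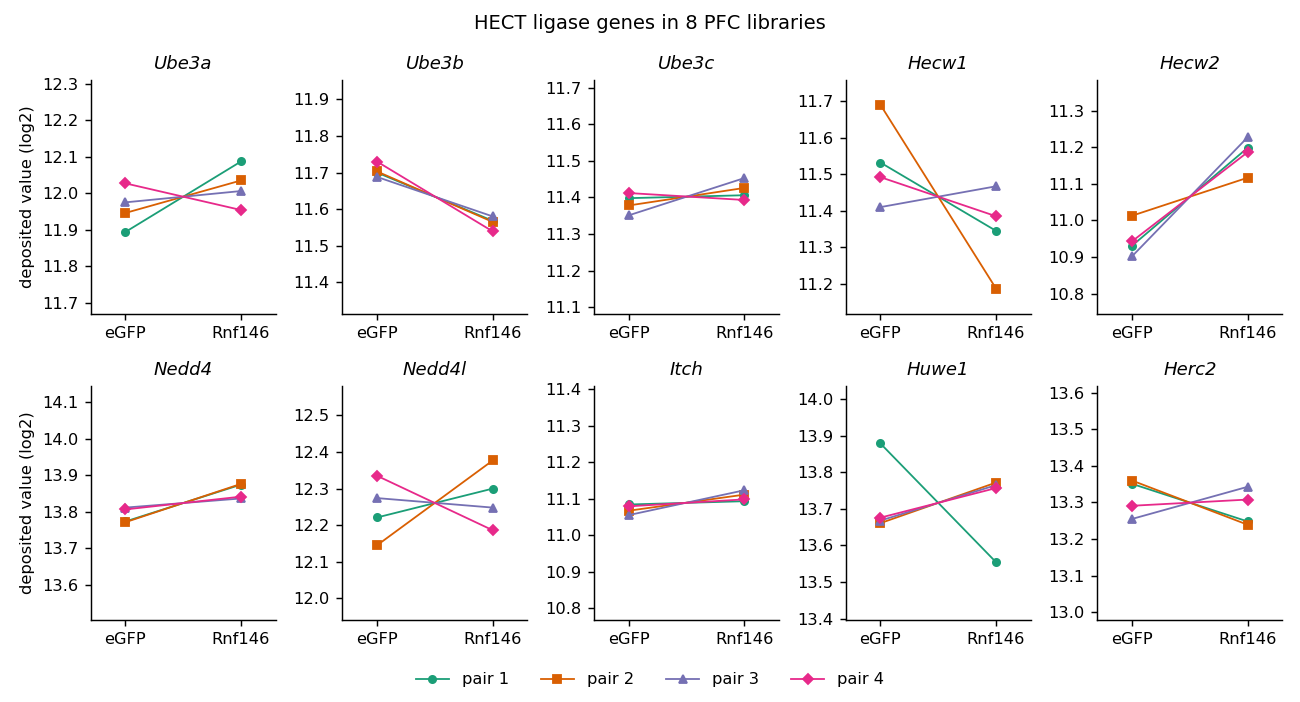
Deposited log2 values of the 10 HECT ligase genes in the 4 eGFP and the 4 Rnf146 libraries, with lines joining the libraries of a pair. *Hecw2* and *Ube3b* show 4 lines in the same direction and no overlap between the groups, while *Ube3a* and *Hecw1* each show 1 line that runs against the other 3. The panels have the same length of axis at different levels.

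*Ube3a*, *Ube3b* and *Ube3c* share the prefix but not the direction. *Ube3b* (chromosome 5 of GRCm39, 114518629 to 114560189, plus strand), a calmodulin-binding ligase whose human counterpart is mutated in Kaufman oculocerebrofacial syndrome, had values of 11.70, 11.70, 11.69 and 11.73 in eGFP libraries 1 to 4. In Rnf146 libraries 1 to 4 it had 11.57, 11.56, 11.58 and 11.54. Every Rnf146 library was below every eGFP library, which restates that all 4 pair differences were negative. The spread within a group follows from that of the pair differences, as the centring removed the variation between pairs. The difference was -0.14 ± 0.03 (SD, n = 4 pairs). In limma it had a 95% interval of -0.24 to -0.04, an unadjusted p of 0.00964 and an adjusted p of 0.223. The authors' own analysis, with calls at an FDR of 0.1 or less, reported *Ube3b* as significantly lower. The fit used here did not call it.

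*Ube3a* (chromosome 7, 58878492 to 58961832, plus strand) encodes the ligase that is expressed from the maternal allele in neurons. Its eGFP libraries held 11.89, 11.95, 11.97 and 12.03 and its Rnf146 libraries 12.09, 12.04, 12.01 and 11.95, so the groups overlapped. In pair 1 the Rnf146 library was higher by 0.19 and in pair 4 it was lower (-0.07). The mean difference of 0.06 ± 0.11 (SD, n = 4 pairs) had a 95% interval of -0.06 to 0.18 and an adjusted p of 0.708 in limma.

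*Ube3c* (chromosome 5, 29774184 to 29881258, plus strand) encodes a ligase that binds the proteasome and lengthens ubiquitin chains on its substrates. Values ran from 11.35 to 11.41 in the eGFP libraries and from 11.39 to 11.45 in the Rnf146 libraries, and the groups overlapped. The difference was 0.03 ± 0.05 (SD, n = 4 pairs; limma, 95% interval -0.07 to 0.14, adjusted p = 0.811). Within pairs, the difference of *Ube3b* lay below that of *Ube3a* by 0.202 ± 0.0943 and below that of *Ube3c* by 0.177 ± 0.0292, in all 4 pairs in both cases. An exact two-sided sign-flip test of 4 pairs gave p = 0.125 for each, which is the smallest p that its 16 combinations can give. Adjusted over the 5 comparisons made between HECT ligase genes, both were 0.208.

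The mouse *Ube3a* locus contains transcripts of both strands. *Snhg14*, the long antisense RNA that silences the paternal *Ube3a* allele in neurons, starts beyond the 3′ end of *Ube3a* and overlaps that end on the minus strand (58957672 to 59628040). Pairs 1 to 4 gave differences of -0.05, 0.11, 0.25 and 0.15, whose mean was 0.12 ± 0.13 (SD; limma, adjusted p = 0.447). In pair 1, where *Ube3a* had its largest difference of 0.19, *Snhg14* had its lowest. The highest of *Snhg14* was in pair 3, where *Ube3a* differed by 0.03, while *Ube3a* was lowest in pair 4. A relation between these 2 genes was not tested. *Snrpn*, which shares the paternal transcription unit, differed by 0.06 (adjusted p = 0.651). The 4 unnamed or Riken genes with values that overlap *Ube3a* on the minus strand (9330162G02Rik, Gm44562, Gm44559 and Gm44560) differed by 0.02 to 0.09 and were not called. The library kit keeps strand, but how reads shared by such overlapping genes were assigned is not given in the sources used here, and these values are uncertain in that respect.

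*Herc2* lies near the cluster of imprinted genes on chromosome 7 that holds *Ube3a* and encodes a giant ligase that binds the Ube3a protein. Of 15 genes around both, 13 had values, and 1, *Magel2*, was called (1 of 13, against 1.25% of all genes). *Magel2*, a paternally expressed gene that encodes a partner of ubiquitin ligases in endosomal sorting, rose by 0.52 ± 0.28 (SD, n = 4 pairs; pair differences 0.77, 0.60, 0.12 and 0.59; limma, adjusted p = 0.0640). The call was lost without replicate 2 or 4 (adjusted p = 0.257 and 0.294) and with the striatal and septal score as a covariate (0.765). With the excitatory neuron score its difference was 0.17 (adjusted p = 0.972). Most calls were lost in these settings: over all genes they numbered 42, 14, 3 and 1 in that order, against 188. With *Magel2*, 4 of the 13 had an unadjusted p under 0.05, all with higher values, beside 12.4% of all genes in either direction. The median difference of the 13 was 0.05. Lowest of them was *Nipa2*, a magnesium transporter gene, with -0.06 (adjusted p = 0.824).

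Among the Nedd4-type ligases, which bind substrates through WW domains, *Hecw2* (chromosome 1, 53846035 to 54234327, minus strand) came closest to a call. It encodes a ligase of p73. Its values were 10.93, 11.01, 10.90 and 10.94 in eGFP libraries 1 to 4. In the Rnf146 libraries they were 11.20, 11.12, 11.23 and 11.19. All Rnf146 libraries were above all eGFP libraries, and pair 2 showed the smallest distance (0.10, against 0.24 to 0.33 in the other pairs). The difference of 0.24 ± 0.09 (SD, n = 4 pairs) had a 95% interval of 0.12 to 0.35 and an adjusted p of 0.106 in limma, just outside the threshold. When the libraries were centred on their median the adjusted p was 0.098. It was 0.118 with quantile normalization and 0.147 after the length and GC correction. Leaving out 1 replicate gave 0.132 to 0.378, and the marker scores as covariates gave 0.279 to 0.949.

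*Hecw1* (chromosome 13, 14401023 to 14697813, minus strand), which encodes the closest relative of the Hecw2 protein, had values of 11.53, 11.69, 11.41 and 11.49 in the eGFP libraries and 11.34, 11.19, 11.47 and 11.38 in the Rnf146 libraries. Pair 2 had by far the largest distance (-0.50), pair 3 ran the other way (0.06), and the groups overlapped. The mean difference was -0.19 ± 0.24 (SD, n = 4 pairs). In limma it had an unadjusted p of 0.0514 and an adjusted p of 0.406. In each pair *Hecw1* had a lower difference than *Hecw2*, by 0.421 ± 0.146 on average (exact two-sided sign-flip test, n = 4 pairs, p = 0.125, 0.208 after adjustment over 5 comparisons).

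Pairs 2 and 3, the extremes of *Hecw1*, were also those of the excitatory neuron markers, whose mean differed by -0.23, -0.36, -0.05 and -0.20 in pairs 1 to 4. Of these 10 markers, 9 had lower means in the Rnf146 group and 2 were called (all genes, 1.25%). All 10 had values in the table. A score of these markers was added as a covariate beside the block after the data were seen. With it the difference of *Hecw1* was 0.19 in place of -0.19 (limma, adjusted p = 0.969). The score itself was lower in the Rnf146 library of all 4 pairs, so this fit cannot separate it from the group. A link of *Hecw1* to these markers was not tested. The difference of *Hecw2* stayed above 0 with this score and in the other 13 alternatives, between 0.20 and 0.38. That of *Ube3b* stayed below 0 in the same 14, between -0.15 and -0.12. Several of these settings could not change the sign. Omitting the block, the filter on low values and the other variance settings leave the difference itself unchanged. Leaving out 1 replicate keeps the sign where all 4 pair differences share it.

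*Nedd4* (chromosome 9, 72569596 to 72657134, plus strand), the founding gene of the group, had eGFP values of 13.77, 13.77, 13.81 and 13.81 and Rnf146 values of 13.87, 13.88, 13.84 and 13.84. The groups did not overlap, yet the distance was 0.10 in pairs 1 and 2 and 0.02 to 0.03 in pairs 3 and 4. The mean of 0.07 ± 0.04 (SD, n = 4 pairs) had an adjusted p of 0.600 in limma and a 95% interval of -0.04 to 0.17.

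*Nedd4l* encodes the ligase best known for removing the epithelial sodium channel from the membrane. Its pair differences were 0.08, 0.23, -0.03 and -0.15, and its libraries ran from 12.14 to 12.34 in the eGFP group and from 12.19 to 12.38 in the Rnf146 group. The pairs thus disagreed in direction, and the mean of 0.03 ± 0.16 (SD, n = 4 pairs) had a 95% interval of -0.11 to 0.18 (limma, adjusted p = 0.881). *Nedd4* and *Nedd4l* differed from each other by 0.032 ± 0.127 in the 4 pairs (exact two-sided sign-flip p = 0.625). An overlapping gene on the strand of *Nedd4*, Gm36936, differed by 0.09 and was not called.

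*Itch* (chromosome 2, 154975388 to 155069532, plus strand), named after the itching mouse mutant with immune disease, had the smallest spread over the pairs of the 10. Its eGFP libraries lay between 11.06 and 11.08 and its Rnf146 libraries between 11.09 and 11.12. The 2 groups did not overlap, but the difference of 0.03 ± 0.03 (SD, n = 4 pairs) was small beside the error that limma estimates over all genes (95% interval -0.06 to 0.13, adjusted p = 0.797).

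*Huwe1* (chromosome X, 150583803 to 150718413, plus strand) encodes a giant ligase of Mcl1 and N-Myc that, like the Rnf146 protein, carries a WWE domain. Its eGFP libraries held 13.88, 13.66, 13.67 and 13.68 and its Rnf146 libraries 13.55, 13.77, 13.77 and 13.76. Pair 1 ran opposite to the other 3 pairs, with -0.32 against 0.11, 0.10 and 0.08. The mean difference of -0.01 ± 0.21 (SD, n = 4 pairs; limma, adjusted p = 0.979) was 0.10 without replicate 1, with an adjusted p of 0.417. Pair 1 was also the only pair in which the oligodendrocyte markers (-0.15), the oligodendrocyte precursor markers (-0.06) and the striatal markers (-0.12) had a lower mean in the Rnf146 library. The mean of the oligodendrocyte markers lay between 11.83 and 12.36 in the eGFP libraries and between 12.21 and 12.75 in the Rnf146 libraries, and all 8 were in the table. None of the 8 was called (0 of 8), yet all 8 had higher means and an unadjusted p under 0.05 in limma, beside 12.4% of all genes in either direction. With the score of the oligodendrocyte markers as a covariate the difference of *Huwe1* was -0.20 (adjusted p = 0.307), a setting added after the data were seen. With the striatal and septal score it was -0.22 (adjusted p = 0.91). A link of *Huwe1* to any of these lists was not tested.

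*Herc2* (chromosome 7, 55699874 to 55884371, plus strand) had values of 13.35, 13.36, 13.25 and 13.29 in the eGFP libraries and 13.25, 13.24, 13.34 and 13.31 in the Rnf146 libraries. Pairs 1 and 2 were lower and pairs 3 and 4 higher in the Rnf146 library, so the groups overlapped. The mean of -0.03 ± 0.10 (SD, n = 4 pairs) had a 95% interval of -0.15 to 0.09 (limma, adjusted p = 0.870). The differences of the 2 giant ligases were 0.0209 ± 0.187 apart (exact two-sided sign-flip test, n = 4 pairs, p = 0.625).

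The table held 16 further HECT ligase genes, which brought the family to 26, and 0 of the 16 were called (all genes, 1.25%). At an unadjusted p under 0.05 in limma, 3 were higher and 2 lower, 5 of 16 beside 12.4% of all genes, and 8 means lay on either side of 0 with a median of -0.01. *Hectd2* had the largest increase in value, 0.22 ± 0.09 (SD, n = 4 pairs; adjusted p = 0.129), close to that of *Hecw2*. At the other end, *Hectd3* had -0.16 ± 0.12 (adjusted p = 0.291). *Smurf2* (0.19, adjusted p = 0.221) and *Smurf1* (-0.12, adjusted p = 0.321), ligases of the TGF-β and BMP pathways, had differences of opposite sign, and *Wwp1* had 0.16 (adjusted p = 0.244). These last 3 were named because of their values, outside the naming rule.

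**Figure D3:**
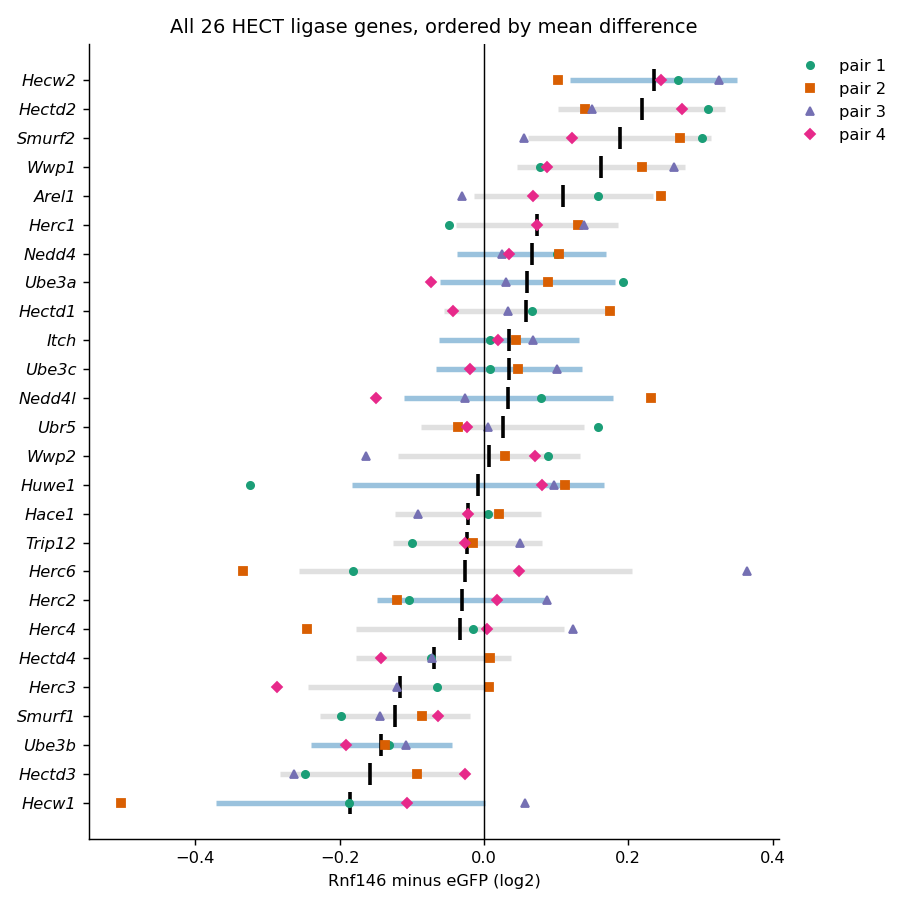
Differences in the 4 pairs (points), their mean (black tick) and the 95% interval of limma (bar) on a log2 scale, along the horizontal axis, for the 26 HECT ligase genes of the table, ordered by mean. Bars of the 10 described genes are blue and those of the other 16 grey. *Hecw2* and *Hectd2* stand at the upper end and *Hecw1* at the lower end, and no gene of the 26 was called.

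Enzymes that feed the HECT ligases showed small differences. Among 10 genes for E1 enzymes, which activate ubiquitin, and for E2 enzymes that work with HECT ligases, 0 were called and 0 had an unadjusted p under 0.05 in limma. Over all genes these shares were 1.25% and 12.4%. Differences of the 10 ranged from -0.06 for *Uba1* (adjusted p = 0.731) to 0.11 for *Ube2d1* (adjusted p = 0.405). Of the 8 adaptors that bring Nedd4-type ligases to substrates, 1 was called (1 of 8, against 1.25% of all genes). *Grb10*, an imprinted gene whose product links Nedd4 to the insulin and IGF1 receptors, rose by 0.28 ± 0.13 (SD, n = 4 pairs; 0.40, 0.33, 0.11 and 0.26 in pairs 1 to 4; limma, adjusted p = 0.0922). The call on *Grb10* was lost without replicate 1, 2 or 4 (adjusted p = 0.121, 0.361 and 0.338) and with the striatal and septal score as a covariate (0.841). With the excitatory neuron score its difference was 0.11 (adjusted p = 0.972). Over all genes, calls numbered 421, 42 and 14 without those replicates and 3 and 1 with those scores, against 188. The lowest adaptor was the arrestin-related *Arrdc2* with -0.07 (adjusted p = 0.810), and the median of the 8 was 0.00.

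Transcripts of 13 proteins reported as substrates of the HECT ligases included 1 called gene. *Junb*, which encodes an AP-1 transcription factor that Itch ubiquitinates and that neuronal activity induces, fell by 0.44 on the log2 scale (SD 0.21, n = 4 pairs; limma, adjusted p = 0.0556). Its pair differences were -0.22, -0.71, -0.46 and -0.37, all in 1 direction, whereas *Itch* differed by 0.01, 0.04, 0.07 and 0.02 in the same pairs. The call on *Junb* was lost without replicate 2, 3 or 4 (adjusted p = 0.151, 0.131 and 0.241) and after correction for transcript length and GC content (0.114). With the striatal and septal, the oligodendrocyte and the excitatory neuron score as covariate, its difference was -0.16, -0.33 and -0.29 (adjusted p = 0.91, 0.25 and 0.972). Over all genes, calls numbered 42, 169 and 14 without those replicates and 167 after that correction, against 188. With the scores they numbered 3, 254 and 1. In all, 1 of 13 was called (all genes, 1.25%), and 10 of the 13 means were below 0, beside 7441 of the 15039 genes, with a median of -0.05 beside 0.00. The highest was that of *Notch1*, a receptor, with 0.14 (adjusted p = 0.655). These are RNA values and do not measure ubiquitination or protein.

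**Figure D4:**
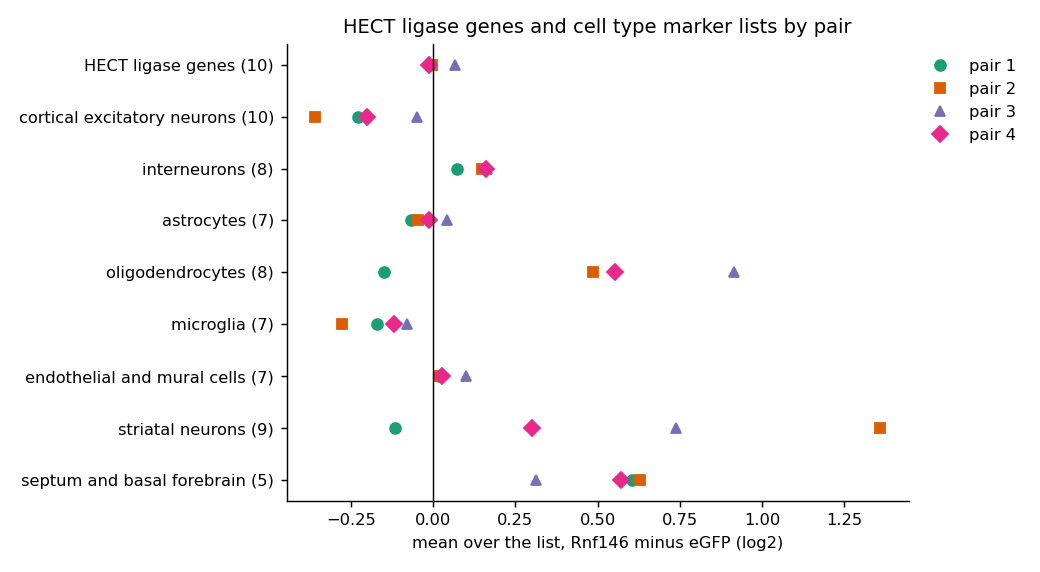
Mean difference of each gene list in each of the 4 pairs (log2 scale, horizontal axis) for the 10 HECT ligase genes and 8 of the 9 marker lists, with the number of genes in parentheses. The list of 4 oligodendrocyte precursor markers (-0.06 to 0.14) is not drawn. The HECT ligase genes lie near 0 in every pair (-0.01 to 0.07), while the striatal markers range from -0.12 to 1.36 and the oligodendrocyte markers from -0.15 to 0.92.

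Genes whose 4 pair differences came closest to those of the 3 HECT ligase genes with the lowest p were looked up among the other 15029 genes, by the root mean square distance between the differences. For *Hecw2* they were *Aif1l* (distance 0.0379), Gm10557 (0.0399) and *Nop9* (0.0414). *Aif1l*, an actin-binding protein gene, and Gm10557 were called, with 0.27 (adjusted p = 0.0704) and 0.23 (adjusted p = 0.0643) in limma. Both were picked for likeness to *Hecw2*, whose own adjusted p in limma was 0.106, so their calls are not separate evidence. Gm10557 had low mean values (8.27 in the eGFP and 8.50 in the Rnf146 group), and the filter on low values left it out. The call on *Aif1l* was lost without any 1 of the 4 replicates (adjusted p 0.103 to 0.294), that on Gm10557 without replicate 2, 3 or 4 (0.146 to 0.289), and both with each of the 3 marker scores as a covariate (0.204 to 0.949). Over all genes, leaving out 1 replicate left 14 to 421 calls and the scores left 1 to 254, against 188. The genes closest to *Ube3b* were *Pgbd5* (0.0143), *Rin3* (0.0144) and *Ube2ql1* (0.0178), the last a gene of a putative E2 enzyme. Their differences were -0.15, -0.13 and -0.16, with no call. *Dusp14* (0.0338), *Psph* (0.0378) and *Otub2* (0.0380), of which the last encodes a deubiquitinase, came closest to *Hecw1*, and none was called. With 4 pairs and 15029 genes searched, some genes will lie this near by the search alone.

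**Figure D5:**
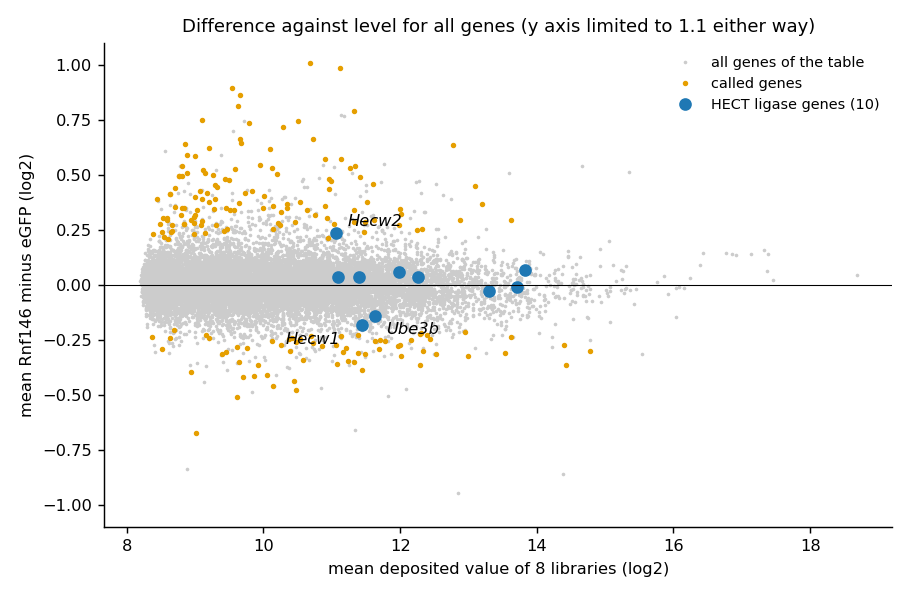
Mean log2 value (horizontal axis) and mean difference between the groups (log2 scale, vertical axis) of all 15039 genes, with called genes in orange and the 10 HECT ligase genes in blue, the 3 with the lowest p by name. The HECT ligase genes lie from -0.19 for *Hecw1* to 0.24 for *Hecw2*, and *Rnf146* (2.64) lies beyond the plotted range.

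The treatment of the pairs decided how many of the 10 genes were called. Without the replicate block, which takes the centred values for 8 independent libraries, limma called 3 of the 10, *Hecw2* (adjusted p = 0.00358), *Ube3b* (0.00386) and *Nedd4* (0.0786), and 21.5% of all genes. The centring removed what the libraries of a pair had in common, while differences between them remain, so the values of a pair are not independent. The fit with the block, which counts 4 differences per gene, was therefore taken as the result.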

How the data were processed

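RNA of 8 mouse PFC libraries (4 per group) was sequenced with a stranded mRNA kit. The authors used Cutadapt for trimming and Salmon 1.9.0 for quantification against GENCODE vM30 (GRCm39). The submitters' processing notes also name DESeq2. The deposited log2 values, called normalized counts, lie between 7.86 and 18.8 for 15039 genes and were centred within pairs; the normalization and transformation are not given in the sources used here. If the values were variance-stabilized, changes of weakly expressed genes would be compressed. Counts were not used here, so the depth of the libraries is unknown, and levels of different genes were not compared. Per-sample columns left unused were 0.

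Groups and replicate numbers came from the sample labels, which do not say that libraries of 1 group came from separate mice. P-values measure the spread between these libraries. The pairing rests on these numbers and on the centring, which fixes the correlation of paired deviations at -1. The main test was limma 3.58.1 (R 4.3.3; replicate block, eBayes with trend), Benjamini-Hochberg adjusted over 15039 genes, and 0.1 was the largest adjusted p that made a call. Pair differences of 5 gene pairs were compared with an exact sign-flip test. Figures and sequences were made with Python 3.11.15, pandas 2.3.3, biopython 1.88 and matplotlib 3.10.9, using GENCODE vM39 on GRCm39, which gave length and GC for 14590 genes (97.0%). The genes, lists, design and alternatives were chosen with earlier results of these data known. Named were the 10 genes and Rnf146, the called genes and both extremes of each partner list, and the 3 nearest genes of 3 members. Alternatives were no block, median centring, quantile normalization, a filter on low values, untrended or robust variances, an adjusted p of 0.05, each replicate left out, a length and GC correction and a striatal and septal score. Oligodendrocyte and excitatory neuron scores were added after seeing the data.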

Additional observations from a re-analysis of the deposited data

Results flagged for a closer look

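In *Huwe1*, 1 of the 4 libraries lay far from the other 3 in both groups. In the eGFP group, library 1 was the highest (13.88, others 13.66 to 13.68), and its gap to the nearest library was 0.928 of the group's range. In the Rnf146 group, library 1 was the lowest (13.55, others 13.76 to 13.77), with the same gap of 0.928. Both exceeded Dixon's 95% critical value for 4 libraries. Since the values were centred within pairs, the 2 gaps are a single fact about pair 1. Chance flags about 5% of groups. For the same reason the 2 groups of each gene gave identical gaps, so 10 distinct sets of values, 1 per gene, were examined.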

How the results depend on the processing

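The limits are the 4 pair differences per gene, the unknown depth and the unnamed transformation. For the 10 HECT ligase genes, 126 of the values under 14 alternatives kept direction and side of the threshold, 4 passed the threshold only under the alternative and 10 changed sign. In some alternatives direction could not change, as they alter only the block, the variances or the set of genes. Without the replicate block, limma called 3226 genes (1655 higher, 1571 lower), 3 of them HECT ligase genes, which the pair-centred values and the larger residual degrees of freedom bring with them. Median centring called 1 HECT ligase gene, *Hecw2*. An adjusted p of 0.05 left 80 genes (67 higher, 13 lower), and the length and GC correction 43 lower genes. A striatal and septal score as covariate left 3 (2 higher, 1 lower) and an excitatory neuron score 1 (1 higher, 0 lower). An oligodendrocyte score gave 124 lower genes. The excitatory neuron score was lower in the Rnf146 library of every pair, and all septal markers with values were called higher. These scores therefore share variation with the group, which the fits cannot separate, and each covariate leaves fewer residual degrees of freedom. The calls lost with them are limited in meaning by this. Leaving out 1 replicate gave 14 to 421 called genes, 14 to 302 higher and 0 to 119 lower, with the fewest without replicate 4 and the most without replicate 1. Of all calls, 65.4% were higher in the fit reported, 51.3% without the block, 51.2% with the oligodendrocyte score, 74.3% after the length and GC correction, 83.8% at an adjusted p of 0.05, 92.9% without replicate 2, and 100% both without replicate 4 (14 genes) and with the excitatory score (1 gene).

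Signs changed for *Huwe1* under quantile normalization (0.0158) and the excitatory score (0.0165), and for *Herc2* under the latter (0.12). With the striatal and septal score and with the excitatory score, respectively, they changed for *Hecw1* (0.015 and 0.194), *Nedd4l* (-0.10 and -0.15), *Dusp14* (0.00333 and 0.156), *Psph* (0.0521 and 0.207) and *Otub2* (0.0429 and 0.174). With the striatal and septal score and the oligodendrocyte score, they changed for *Notch1* (-0.21 and -0.12) and *Nipa2* (0.19 and 0.13). Leaving out 1 replicate gave -0.0489 to 0.0966 for *Huwe1*, -0.0318 to 0.0951 for *Nedd4l*, -0.0687 to 0.000657 for *Herc2*, -0.146 to 0.000335 for *Nipa2* and -0.135 to 0.0558 for *Arrdc2*. The cause of these changes was not tested.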
